A study of Homo sapiens with 66 samples.

Results

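MIR210HG, NEAT1, MALAT1 and H19 are long noncoding RNA genes with a known link to hypoxia, and their surroundings were searched for peaks of the subunits of hypoxia-inducible factor (HIF), namely HIF-1β and its partners HIF-1α and HIF-2α. A peak was assigned to a gene when its centre lay in the gene body or within 30 kb of any transcription start site (TSS) that GENCODE 44 places on the gene in GRCh37 (hg19). Of 131425 peaks in 50 lists, 147 met this rule, and they merged into 18 of the 50169 sites formed by overlapping peaks on the main chromosomes. NEAT1 had 70 of these peaks in 5 sites, MALAT1 34 in 7 sites, MIR210HG 31 in 3 sites and H19 12 in 3 sites.

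HIF-1α and HIF-2α are stabilised when oxygen falls, and each pairs with HIF-1β to bind DNA at a short motif, the hypoxia response element (HRE). MIR210HG is the host transcript of miR-210, a microRNA that hypoxia induces in most cell types and that lowers mitochondrial iron-sulphur cluster assembly. NEAT1 is the RNA scaffold of nuclear paraspeckles, MALAT1 is an abundant RNA of nuclear speckles whose gene lies next to NEAT1, and H19 is an imprinted fetal transcript that hosts miR-675.

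Binding was mapped by ChIP-seq, the sequencing of DNA pulled down with an antibody, in 25 groups of 2 libraries. HKC8, a kidney proximal tubule cell line, spent 6 h at 3% oxygen, or 6 h, 16 h or 48 h at 0.5% oxygen, and was studied with antibodies to HIF-1α (PM14), HIF-2α (PM9) and HIF-1β (from Novus) (24 libraries, the severity and duration experiment). In the knockout experiment (14 libraries), HKC8_WT (wild-type, WT), HKC8_HIF1aKO and HKC8_HIF2aKO cells, each knockout a single CRISPR-Cas9 clone, were kept at 0.5% oxygen for 16 h. RCC4, a renal cancer line that lacks functional VHL and so keeps HIF-α in normal oxygen, gave 6 libraries from normoxia, and HepG2, a hepatocellular cancer line, gave 6 from 16 h at 0.5% oxygen. The 16 input libraries were not analysed here as samples. Peak lists hold no expression, so markers of each line could not be checked here.

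Each peak carries a score, −10 × log10 of the p-value given by the peak caller, with a lowest value of 50. Because read depth is unknown, scores were compared only within a list, as a percentile in which 100 is the highest score and a site with no peak counts as 0. The severity and duration lists held 237 to 1793 peaks each, the knockout lists 915 to 8279, the RCC4 lists 911 to 5680 and the HepG2 lists 3470 to 6851. In HepG2, peaks within 1 kb of a protein-coding TSS made up 8.35% and 30.5% of the lists labelled HIF-1α replicates 1 and 2, and 32.3% and 10.1% of those labelled HIF-2α replicates 1 and 2, so by this measure replicates differed more than antibodies. Isoform differences are therefore given with and without HepG2.

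Binding was placed mostly outside the transcribed bodies, close to the starts of MIR210HG and NEAT1 and several kb away from MALAT1 and H19. The MIR210HG promoter site (gene ENSG00000247095.5_9, chr11:565657-568457, minus strand) spanned chr11:566934-570503, and its centre lay 0.216 kb upstream of the TSS. It contains the whole MIR210 hairpin (chr11:568089-568198), 0.530 kb from the centre. The nearest protein-coding TSS, of RASSF7, was 6.29 kb away.

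NEAT1 (ENSG00000245532.11_10, chr11:65190245-65213011, plus strand) had 3 sites that were called in both libraries of at least 1 group. The promoter site, chr11:65188214-65191542, was centred 0.414 kb upstream of the TSS, an upstream site, chr11:65184577-65187420, 3.98 kb upstream, and a downstream site, chr11:65222013-65223455, 32.5 kb downstream of the TSS and beginning 9.0 kb past the gene's end. The centre of the downstream site lay inside FAUP4, a pseudogene, 0.004 kb from its start, and 29.7 kb from the nearest NEAT1 TSS, so it falls just inside the distance limit. The next site beyond the limit was 36.2 kb from a NEAT1 TSS and was called in 1 library, and the one after it, at 40.3 kb, in 12. The nearest protein-coding gene, FRMD8, had a TSS 28.1 kb from the promoter site and 24.5 kb from the upstream site.

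MALAT1 (ENSG00000251562.11_10, chr11:65265111-65275544, plus strand) was flanked on its upstream side by 3 such sites, at chr11:65254859-65258446, chr11:65258543-65260659 and chr11:65244410-65245584, centred 8.40, 5.78 and 20.1 kb from the TSS. A peak at the MALAT1 promoter itself, 0.083 kb from the TSS, was called in 5 libraries but in no group by both. The H19 site (H19: ENSG00000130600.22_13, chr11:2016396-2025782, minus strand) was chr11:2007879-2012954, with its centre 15.4 kb downstream of the TSS. The site began 3.44 kb past the end of H19. Its centre lay inside MRPL23-AS1, another noncoding gene, 0.800 kb from that gene's start, and the site also overlapped LINC01219. The MALAT1 sites also lay at other noncoding genes. The site 20.1 kb upstream was centred inside ENSG00000289883, 0.058 kb from that gene's start. The site 8.40 kb upstream overlapped LINC02736, with its centre 0.524 kb from the start of LINC02736. The site 5.78 kb upstream overlapped ENSG00000290061. These genes, MRPL23-AS1, LINC01219 and FAUP4 are named because the annotation holds them at these sites. They were chosen after the values were seen.

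**Figure D1:**
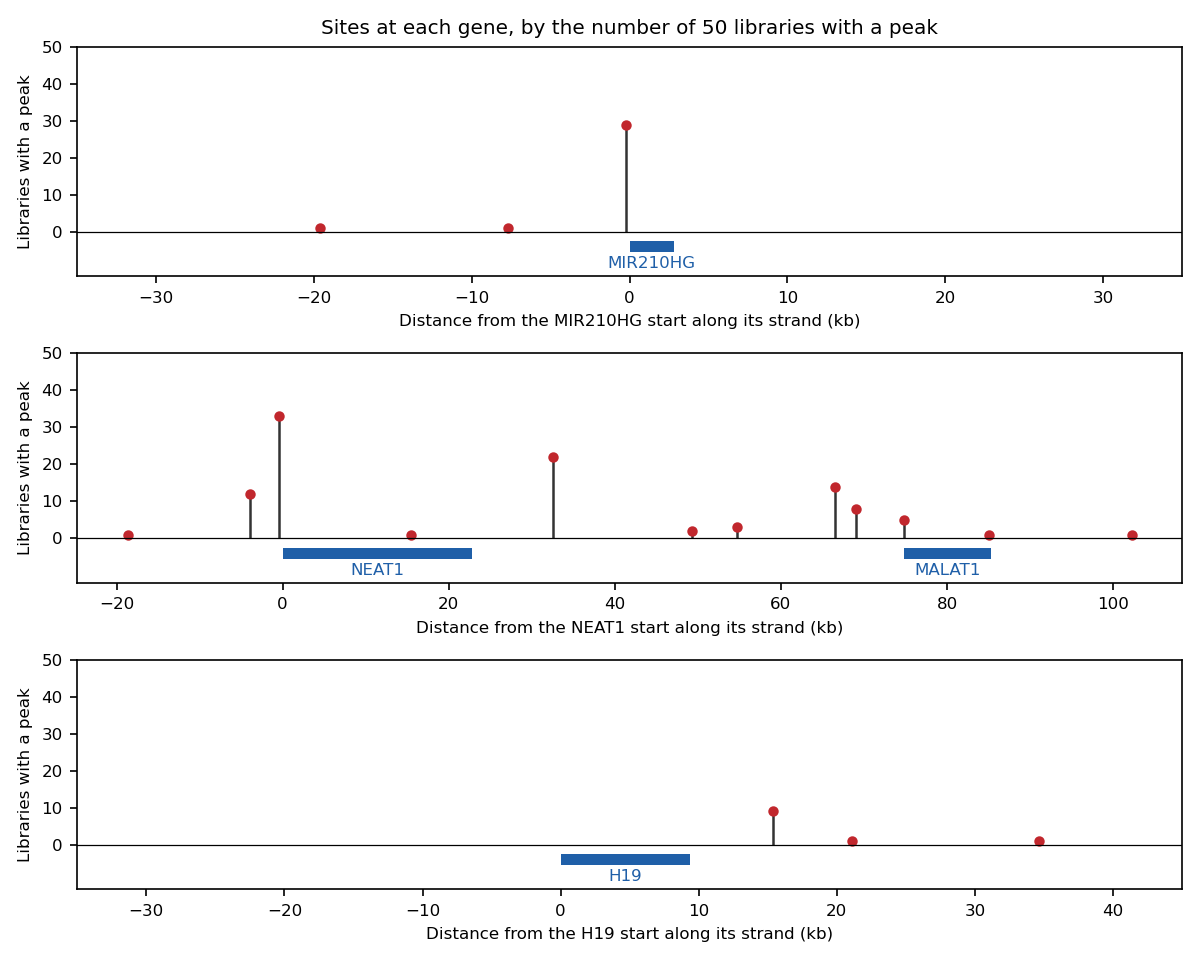
Each point is a site, placed by the distance of its centre from the TSS of MIR210HG (top), NEAT1 (middle, with MALAT1 on the same axis) or H19 (bottom) along that gene's strand (horizontal axis, kb), and its height is the number of the 50 libraries with a peak there. Blue bars are gene bodies. The highest points are the NEAT1 promoter (33 libraries) and the MIR210HG promoter (29 libraries), and the H19 point with 9 libraries lies past the end of the gene.

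The sequences around the centres are shown so that the motifs at the sites called most often can be read. Each run below holds the 201 bases around the centre in GRCh37, 5′ to 3′ on the strand of the gene, and capitals mark the HRE core, ACGTG or GCGTG, on either strand (read on the opposite strand it appears as CACGT or CACGC, and CACGTG counts on both strands).

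MIR210HG promoter, chr11:568573-568773, minus strand: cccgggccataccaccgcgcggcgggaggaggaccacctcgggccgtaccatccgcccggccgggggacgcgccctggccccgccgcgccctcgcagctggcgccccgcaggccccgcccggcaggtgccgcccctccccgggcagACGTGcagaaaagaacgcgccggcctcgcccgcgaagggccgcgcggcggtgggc

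NEAT1 promoter, chr11:65189731-65189931, plus strand: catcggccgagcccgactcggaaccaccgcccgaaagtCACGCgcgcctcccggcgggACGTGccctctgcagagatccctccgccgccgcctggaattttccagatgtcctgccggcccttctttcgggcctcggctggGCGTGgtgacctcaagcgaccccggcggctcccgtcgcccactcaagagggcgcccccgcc

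NEAT1, 3.98 kb upstream, chr11:65186167-65186367, plus strand: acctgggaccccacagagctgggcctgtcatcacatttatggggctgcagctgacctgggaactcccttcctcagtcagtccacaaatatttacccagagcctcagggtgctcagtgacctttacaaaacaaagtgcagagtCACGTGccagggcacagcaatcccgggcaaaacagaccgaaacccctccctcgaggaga

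NEAT1, 32.5 kb downstream, chr11:65222644-65222844, plus strand: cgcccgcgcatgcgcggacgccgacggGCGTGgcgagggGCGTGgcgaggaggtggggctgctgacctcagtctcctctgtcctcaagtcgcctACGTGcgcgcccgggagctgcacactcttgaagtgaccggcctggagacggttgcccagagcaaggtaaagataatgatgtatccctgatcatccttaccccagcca

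MALAT1, 8.40 kb upstream, chr11:65256609-65256809, plus strand: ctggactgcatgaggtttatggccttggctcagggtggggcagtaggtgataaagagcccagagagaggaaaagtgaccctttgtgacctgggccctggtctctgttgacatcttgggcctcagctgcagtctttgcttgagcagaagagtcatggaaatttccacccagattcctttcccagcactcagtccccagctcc

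H19, 15.4 kb downstream, chr11:2010323-2010523, minus strand: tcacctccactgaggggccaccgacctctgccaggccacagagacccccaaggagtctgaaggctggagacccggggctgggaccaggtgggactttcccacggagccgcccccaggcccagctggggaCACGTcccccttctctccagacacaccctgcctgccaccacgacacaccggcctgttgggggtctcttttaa

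The MIR210HG promoter had 1 HRE core in this window, 48 bases from the centre. The NEAT1 promoter had 3, the NEAT1 downstream site 3, with 1 of them 4 bases from the centre, and the NEAT1 upstream site 2, both from a single CACGTG. The H19 site had 1, 31 bases from the centre. The MALAT1 site 8.40 kb upstream, called in 14 libraries, had none in these letters. Among the 8 sites called in both libraries of at least 1 group, 7 held an HRE core, as did 33.9% of all 50169 sites and 69.5% of the 2652 sites called in at least 10 libraries. The AP-1 motif, TGACTCA or its reverse complement TGAGTCA, was found at 1 of the 8, the MALAT1 site 20.1 kb upstream, and at 7.98% of all sites. Sites called in at least 20 libraries held an HRE core in 82.5% of cases. The 8 sites were called in 3 to 33 libraries, so none of these shares is a matched reference. The 7 of 8 is not read as setting these sites apart. A match is a description of the letters and not of binding to them.

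The product of the MIR210HG locus is shown because the merged promoter site contains the MIR210 hairpin. Both mature forms are from RefSeq (GRCh38.p14), with the seed, bases 2 to 8, in capitals, and the seeds differ.

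hsa-miR-210-3p: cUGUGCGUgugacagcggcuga

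hsa-miR-210-5p: aGCCCCUGcccaccgcacacug

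NEAT1 had a peak under the rule in 39 of 50 libraries, MIR210HG in 29, MALAT1 in 18 and H19 in 9. By the same rule, 70.3% of 18702 lncRNA genes and 78.5% of 20163 protein-coding genes had a peak in at least 1 library, so having a peak does not set the 4 genes apart. The number of libraries did differ from most genes for NEAT1, whose count was reached by 0.551% of lncRNA genes, and for MIR210HG, with 1.80%. It was reached by 5.48% for MALAT1 and by 15.2% for H19. By antibody, NEAT1 was called in 9 of 16 HIF-1α, 14 of 16 HIF-2α and 16 of 18 HIF-1β libraries, and MIR210HG in 10, 8 and 11.

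**Figure D2:**
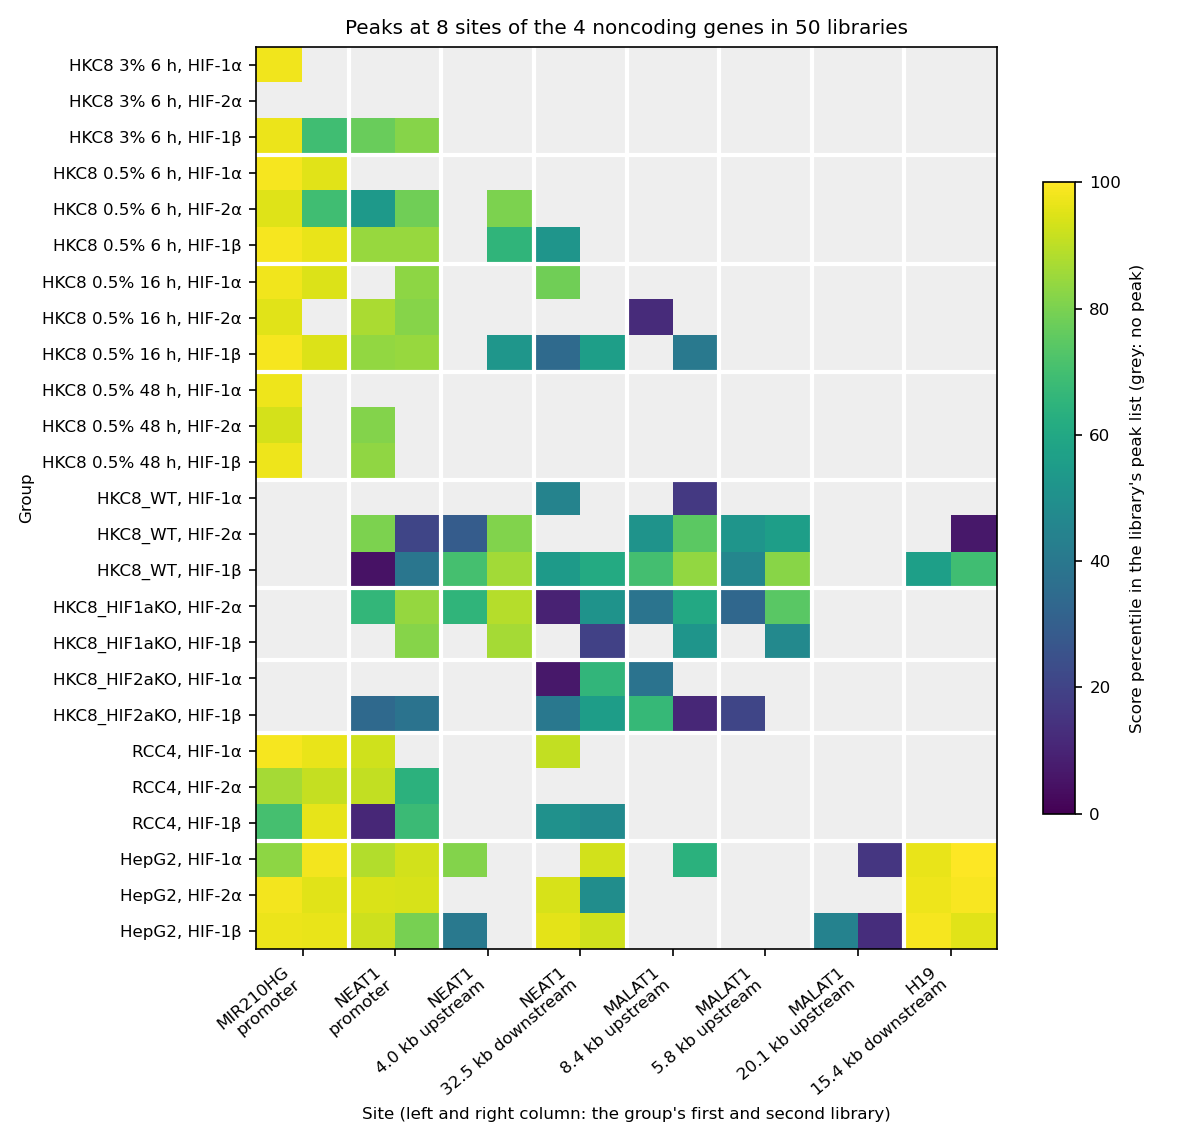
Colour is the score percentile of the peak within its library's list (100 is the highest score, grey is no peak) for 8 sites (columns, 1 column for each of the group's libraries) in 25 groups (rows, by condition and antibody). The MIR210HG promoter is bright in HKC8, RCC4 and HepG2 but grey in all 14 libraries of the knockout experiment, where the MALAT1 site 8.40 kb upstream is called in 11, and the H19 site is brightest in the 6 HepG2 libraries.

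At the MIR210HG promoter, peaks ranked near the top of the lists that held them, with a median percentile of 96.5 over 29 libraries and a range of 69.3 to 98.8. In HKC8 at 0.5% oxygen for 6 h, the percentiles were 98.7 and 95.5 with HIF-1α, 95.3 and 69.3 with HIF-2α, and 98.6 and 96.5 with HIF-1β. At 16 h they were 97.9 and 94.5 with HIF-1α, 98.8 and 94.6 with HIF-1β, and 95.5 with no peak in the second library with HIF-2α. At 48 h each antibody had a peak in replicate 1 alone, at 97.5, 93.6 and 97.3 for HIF-1α, HIF-2α and HIF-1β. The 48 h replicate 2 lists were short for HIF-2α, with 237 peaks, and for HIF-1β, with 626, while the HIF-1α lists, which differ in content, had 1073 each.

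At 3% oxygen the MIR210HG promoter was called with HIF-1α at 97.8 in 1 of 2 libraries, with HIF-1β at 97.3 and 69.4, and with HIF-2α in neither library. RCC4 gave 98.8 and 96.7 with HIF-1α, 86.5 and 91.2 with HIF-2α, and 70.6 and 96.3 with HIF-1β. HepG2 gave 83.1 and 98.1, 98.1 and 95.5, and 97.2 and 96.9 in the same order. All 12 RCC4 and HepG2 libraries therefore had the peak, whatever the antibody.

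In the knockout experiment no library had a peak at MIR210HG, in any genotype and with any antibody, while in the severity and duration experiment 5 of 6 HKC8 libraries at the same 0.5% oxygen and 16 h were called. Of 172 sites called in at least 5 of those 6 libraries, 8 (4.65%) were called in none of the 14, and the NEAT1 promoter, called in 5 of the 6, was called in 9 of the 14. The other 7 were nearest to EGLN1, SIAH2, PFKP, BNIP3, KMT2A, PFKL and an unnamed gene, all within 0.273 kb of a TSS. EGLN1 is an oxygen-sensing hydroxylase, BNIP3 a mitophagy receptor, and PFKP and PFKL are subunits of the glycolytic enzyme phosphofructokinase. G and C made up 82.1% of the 201 bases at MIR210HG and 75.1% to 82.1% at the 8 sites, against a median of 62.4% at the other 164, of which 42 reached 70%. The part of base composition was not tested, and the experiments differ in all libraries at the same time, so the ways in which they differ cannot be told apart. It was added, and its limits chosen, after the data were seen.

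**Figure D3:**
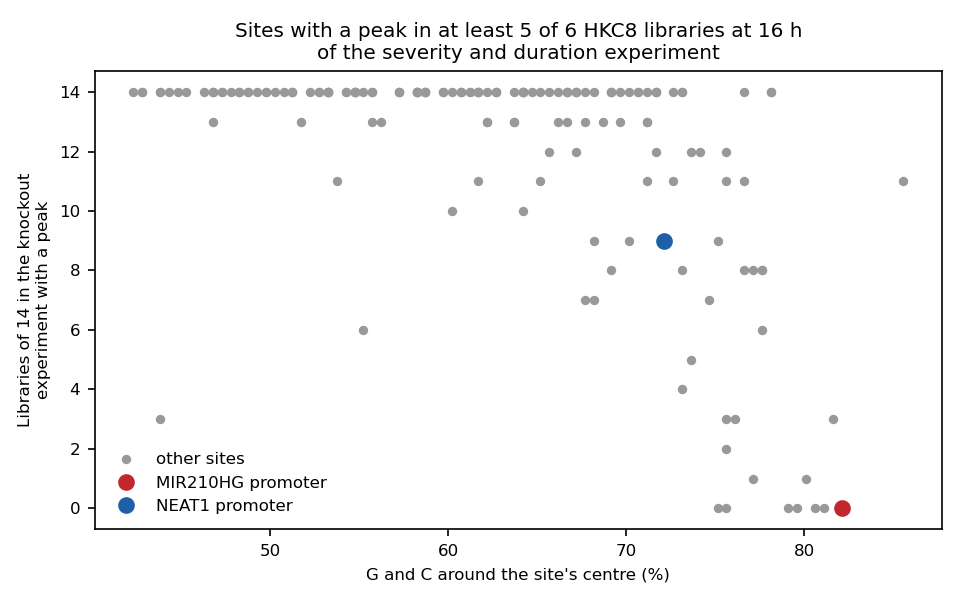
Each point is 1 of the 172 sites called in at least 5 of 6 HKC8 libraries at 0.5% oxygen and 16 h in the severity and duration experiment, by the percentage of G and C around its centre (horizontal) and the number of the 14 knockout experiment libraries with a peak there (vertical). MIR210HG (82.1%, 0 libraries) sits at the lower right and NEAT1 (72.1%, 9 libraries) between it and the row of sites called in all 14.

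The NEAT1 promoter was called in 11 HIF-2α and 4 HIF-1α libraries of the conditions that had both antibodies. At 0.5% oxygen in HKC8, HIF-2α gave 53.6 and 78.4 at 6 h, 87.4 and 81.7 at 16 h and 81.5 with no peak in the second library at 48 h. HIF-1α gave no peak in either library at 6 h or 48 h, and 83.1 in 1 of 2 libraries at 16 h. HIF-1β followed with 84.7 and 84.5 at 6 h, 83.7 and 84.7 at 16 h and 83.3 in 1 of 2 libraries at 48 h. The HIF-2α libraries at 6 h lay wholly above those of HIF-1α, and at 16 h the groups overlapped.

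In RCC4, HIF-1α gave 92.7 in 1 of 2 libraries and HIF-2α 90.8 and 64.2 at the NEAT1 promoter, so the groups overlapped. HepG2 had the site in all 6 libraries, at 88.6 and 93.1 with HIF-1α, 94.4 and 94.0 with HIF-2α, and 92.4 and 79.7 with HIF-1β. At 3% oxygen only HIF-1β called it, at 77.3 and 81.8.

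Over these 7 conditions the mean percentile at the NEAT1 promoter was 25.5 with HIF-1α and 59.1 with HIF-2α (14 libraries each). The difference of −33.5 had an exact permutation p = 0.00746 (two-sided, labels permuted within condition) and an adjusted p = 0.0873 over the 3302 sites tested, and HIF-2α was higher in 6 of 7 conditions and HIF-1α in none. Without HepG2 the difference was −38.6 (exact permutation, adjusted p = 0.0668). Among all sites tested, 1.45% were called as higher with HIF-1α and 4.06% as higher with HIF-2α. The NEAT1 promoter did not pass the threshold of 0.05 in the planned exact permutation test, but passed when only sites called in at least 8 libraries were tested (adjusted p = 0.0256), without RCC4 HIF-1α replicate 1 (0.0205) or without HKC8 48 h HIF-2α replicate 2 (0.0380), within a range of 0.0205 to 1 over all alternatives.

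The MIR210HG promoter had the opposite sign. Of 14 libraries for each isoform, HIF-1α called it in 10 and HIF-2α in 8, with mean percentiles of 68.5 and 51.8. The difference of 16.7 did not pass (exact permutation p = 0.149, adjusted p = 0.380), with HIF-1α higher in 5 conditions and HIF-2α in 1, and it was 20.5 without HepG2. The libraries of HIF-1α lay wholly above those of HIF-2α in HKC8 at 0.5% oxygen for 6 h and in RCC4. The difference between the NEAT1 and MIR210HG effects was not itself tested.

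**Figure D4:**
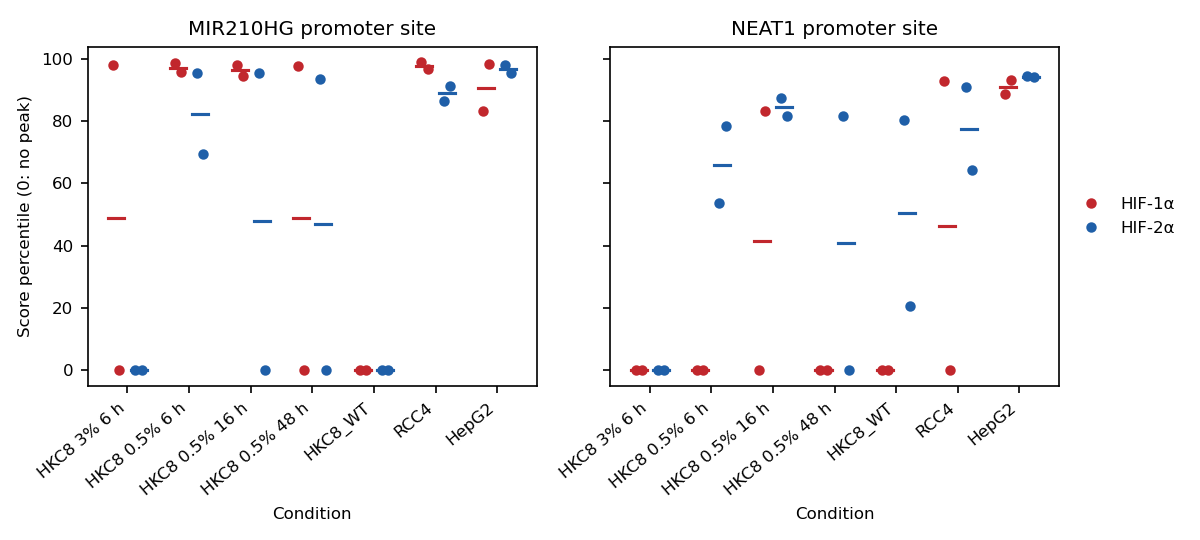
Points are the libraries of HIF-1α (red) and HIF-2α (blue) in the 7 conditions with both antibodies (horizontal), by score percentile (vertical, 0 is no peak), and bars are the means of 2 libraries. At MIR210HG most red points are at or above the blue ones, and at NEAT1 red points are at 0 in both libraries of 4 conditions.

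At the other NEAT1, MALAT1 and H19 sites the isoforms could not be separated over the 7 conditions. The NEAT1 site 32.5 kb downstream was called in 4 HIF-1α and 2 HIF-2α libraries of 14 each (difference 11.7, exact permutation p = 0.417, adjusted p = 0.626, and 17.8 without HepG2), and the NEAT1 upstream site in 1 and 3 (difference −7.81, exact permutation p = 0.583, adjusted p = 0.786, and −15.9 without HepG2). The MALAT1 site 8.40 kb upstream was called in 2 and 3 (difference −4.14, exact permutation p = 0.667, adjusted p = 0.811), and without HepG2 the difference was −10.1 (exact permutation, adjusted p = 0.260). The MALAT1 site 5.78 kb upstream was called in 2 HIF-2α libraries and no HIF-1α library of these conditions, fewer than the 4 libraries needed for the test. At H19, 2 HIF-1α and 3 HIF-2α libraries had the site (difference −0.467, exact permutation p = 0.500, adjusted p = 0.70, and −0.536 without HepG2).

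Severity of hypoxia was compared in HKC8 at 6 h. The MIR210HG promoter was called in 6 of 6 libraries at 0.5% oxygen and 3 of 6 at 3%, with mean percentiles of 92.3 and 44.1, and its mean was lower at 3% with each of the 3 antibodies. The difference of −48.2 had an exact permutation p = 0.0463 and an adjusted p = 0.395 over 683 sites. The NEAT1 promoter was called in 4 and 2 of 6, and its mean was lower at 3% (−23.7, exact permutation p = 0.0556, adjusted p = 0.395). No MALAT1 or H19 site that was called in both libraries of any group had a peak in these 12 libraries. By this exact permutation test 0 of the 683 sites passed (0%), while 46 had an unadjusted p under 0.05, and the smallest p the design allows is 0.00926. Lower values at 3% were the general pattern, with a median difference of −9.34 over the 683 sites and 201 of them above 0, and the 3% lists were shorter, with 558 to 1223 peaks against 1271 to 1496. The NEAT1 difference lay at percentile 29.1 of all differences and that of MIR210HG at 5.42.

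Duration was compared in HKC8 at 0.5% oxygen. At 6 h and 16 h the MIR210HG promoter was called in 6 and 5 of 6 libraries (difference −12.1, exact permutation p = 0.537, adjusted p = 0.834) and the NEAT1 promoter in 4 and 5 (difference 19.9, exact permutation p = 0.111, adjusted p = 0.493). The NEAT1 downstream site was called in 1 library of 6 at 6 h, 3 at 16 h and none at 48 h. At 6 h and 48 h the MIR210HG promoter was called in 6 and 3 libraries (difference −44.3, exact permutation p = 0.148, adjusted p = 0.753) and the NEAT1 promoter in 4 and 2 (difference −22.7, exact permutation p = 0.389, adjusted p = 0.832). The 48 h lists include the shortest of the series, and the part of list length was not tested. Across all sites the exact permutation test called 0 of 1051 (0%) at 16 h and 0 of 700 (0%) at 48 h, with 36 and 24 at an unadjusted p under 0.05. The median difference over these sites was 8.68 at 16 h, with 731 above 0, and −9.17 at 48 h, with 193 above 0. The NEAT1 promoter difference lay at percentile 71.1 of all differences at 16 h and 22.4 at 48 h. That of MIR210HG lay at 11.2 and 2.29.

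The knockout experiment held most of the MALAT1 peaks. MALAT1 was called under the rule in 11 of its 14 libraries, against 2 of 24 in the severity and duration experiment, 4 of 6 in HepG2 and 1 of 6 in RCC4. Calls were more frequent in that experiment over all genes too: by the same rule 3.01% to 15.7% of lncRNA genes were called in both libraries of its groups, against 0.225% to 3.93% in the severity and duration experiment. The site 8.40 kb upstream gave 51.4 and 74.7 with HIF-2α and 70 and 83.7 with HIF-1β in WT cells, and with HIF-1α no peak and 16.7. The site 5.78 kb upstream gave 52.3 and 56.2 with HIF-2α and 45.8 and 82.3 with HIF-1β, and no peak in the 2 HIF-1α libraries. Both sites thus had HIF-2α and HIF-1β peaks in both WT libraries. The WT lists held 4537 and 6749 peaks with HIF-2α and 6199 and 8279 with HIF-1β, against 1913 and 1535 with HIF-1α. The part of list length in this contrast was not tested.

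HIF-2α peaks were also called at these sites in cells without HIF-1α. In HKC8_HIF1aKO cells HIF-2α gave 38.6 and 60.5 at the MALAT1 site 8.40 kb upstream and 33.3 and 74.3 at the site 5.78 kb upstream, overlapping the WT values. At the NEAT1 site 3.98 kb upstream HIF-2α gave 29.2 and 81.1 in WT and 65.6 and 88.7 in HKC8_HIF1aKO, and at the NEAT1 promoter 80.2 and 20.8 in WT and 66.2 and 84.3 in HKC8_HIF1aKO. At the NEAT1 downstream site HIF-2α had no peak in WT and gave 9.47 and 51.3 in HKC8_HIF1aKO.

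With HIF-1α in HKC8_HIF2aKO cells, the NEAT1 promoter and the NEAT1 upstream site had no peak in either library, as in WT. The NEAT1 downstream site gave 44.6 and no peak in WT, and 6.29 and 65.9 in HKC8_HIF2aKO. At the MALAT1 site 8.40 kb upstream 1 of 2 libraries had a peak in each genotype, at 16.7 in WT and 38.1 in HKC8_HIF2aKO. The HIF-1α lists held 1913 and 1535 peaks in WT and 1271 and 915 in HKC8_HIF2aKO, fewer than the HIF-2α lists of this experiment. The part of list length in the absent HIF-1α peaks was not tested.

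With HIF-1β, the partner of both isoforms, the NEAT1 site 3.98 kb upstream gave 70.7 and 86.2 in WT, no peak and 86.7 in HKC8_HIF1aKO, and no peak in either library of HKC8_HIF2aKO. The H19 site gave 56.4 and 69.3 in WT and no peak in the 4 knockout libraries. The NEAT1 downstream site gave 54.5 and 61.0 in WT, no peak and 19.4 in HKC8_HIF1aKO, and 40 and 55.6 in HKC8_HIF2aKO. At the NEAT1 promoter the genotypes overlapped, with 4.77 and 39.2 in WT, no peak and 81.8 in HKC8_HIF1aKO, and 34.0 and 37.9 in HKC8_HIF2aKO. The MALAT1 site 8.40 kb upstream gave 70 and 83.7 in WT, no peak and 52.3 in HKC8_HIF1aKO, and 67.1 and 11 in HKC8_HIF2aKO. The HIF-1β lists were longer in WT, with 6199 and 8279 peaks. They held 3387 and 5786 in HKC8_HIF1aKO and 2550 and 2085 in HKC8_HIF2aKO. The part of list length in the absent peaks was not tested.

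No library used here probes a knockout clone with the antibody to the protein it lacks, so these lists do not check the genotype labels. With 2 libraries against 2, an exact permutation test cannot give a p under 0.33, so no knockout difference could pass. HIF-1β replicate 1 of HKC8_HIF1aKO had no peak at any of the 4 genes although its list held 3387 peaks, and each value for that group rests on replicate 2.

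**Figure D5:**
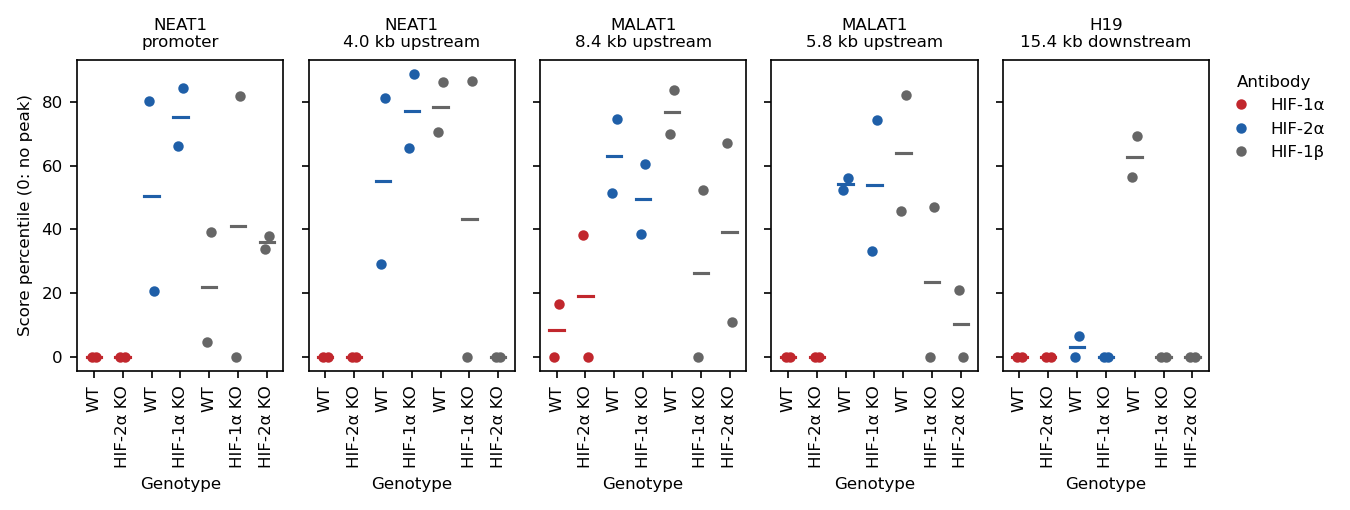
Points are the 2 libraries of each group of the knockout experiment, by genotype (horizontal), antibody (colour) and score percentile (vertical, 0 is no peak), at 5 sites, and bars are means. With HIF-1α the NEAT1 promoter, the NEAT1 upstream site, the MALAT1 site 5.8 kb upstream and the H19 site stay at 0, and with HIF-1β the H19 site is above 0 in WT alone.

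The H19 site was called in every HepG2 library and in few others. In HepG2 the H19 site gave 96.5 and 99.6 with HIF-1α, 97.3 and 99 with HIF-2α and 98.5 and 95.7 with HIF-1β. RCC4 and the severity and duration experiment had no peak there, and WT HKC8 of the knockout experiment had 3, of which the HIF-2α one was at 6.43. Against WT HKC8 the HepG2 mean was 97.8 against 22.0, that is 75.7 higher, at the smallest p this design allows (exact permutation p = 0.00926) and an adjusted p = 0.0694 over 7708 sites. All 6 HepG2 libraries lay above all 6 of WT HKC8, although the adjusted p missed 0.05. Against the 6 HKC8 libraries at 0.5% oxygen and 16 h of the severity and duration experiment, a second reference added after the data were seen, none of which had the site, the difference was 97.8 (exact permutation p = 0.00926, adjusted p = 0.0608). Whichever way the HepG2 antibody labels run, the H19 site was called in all 6.

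By the same comparison the HepG2 mean exceeded that of WT HKC8 by 94.8 at the MIR210HG promoter and by 66.2 at the NEAT1 promoter (exact permutation p = 0.00926 and adjusted p = 0.0694 for each), with 6 of 6 HepG2 libraries called at each. In WT HKC8 of the knockout experiment 0 of 6 and 4 of 6 were called. Against HKC8 of the severity and duration experiment, called in 5 of 6 libraries at each site with means of 80.2 and 70.1, the HepG2 mean was higher by 14.6 at MIR210HG (exact permutation p = 0.593, adjusted p = 0.621) and by 20.2 at NEAT1 (exact permutation p = 0.0278, adjusted p = 0.103). The MALAT1 site 8.40 kb upstream was instead called in 1 of 6 HepG2 libraries against 5 of 6 (difference −38.8, exact permutation p = 0.0648, adjusted p = 0.137). Against the second reference, called in 2 of 6, the direction turned and the difference was 1.87 (exact permutation p = 1, adjusted p = 1). None of the 7708 sites passed (0%), while 1941 had an unadjusted p under 0.05 by the exact permutation test. With the second reference 0 of 3739 passed (0%), and 1019 had an unadjusted p under 0.05.

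The NEAT1 downstream site was called in 5 of 6 HepG2 libraries, at 96.0 and 92.6 with HIF-1β, 94.0 and 48.8 with HIF-2α, and 93.0 with no peak in the other library with HIF-1α. It was 44.1 above WT HKC8 on average (exact permutation p = 0.0648, adjusted p = 0.137), and 42.7 above HKC8 of the severity and duration experiment (exact permutation p = 0.0833, adjusted p = 0.145). The site lies in a pseudogene, and whether reads from related copies reach it was not tested. The MALAT1 site 20.1 kb upstream was called in 3 libraries, all of them HepG2, at 44.2 and 12.9 with HIF-1β and 15.8 in 1 HIF-1α library.

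Against WT HKC8, the RCC4 mean at the MIR210HG promoter was higher by 90 (6 of 6 against 0 of 6 libraries, exact permutation p = 0.00926, adjusted p = 0.112). At the MALAT1 site 8.40 kb upstream it was lower by 49.4 (0 of 6 against 5 of 6, exact permutation p = 0.0278, adjusted p = 0.131), and RCC4 had no peak at the NEAT1 upstream site or the H19 site, where WT HKC8 had 4 and 3. At the NEAT1 promoter the difference was 30.3 (5 of 6 against 4 of 6, exact permutation p = 0.167, adjusted p = 0.227). Of 6032 sites 0 passed (0%), with 1058 at an unadjusted p under 0.05. Lower values in RCC4 were general in this comparison, with a median difference of −22.3 over the 6032 sites and 1115 of them above 0. Against HKC8 of the severity and duration experiment the RCC4 difference was 9.76 at MIR210HG (6 against 5 of 6 libraries, exact permutation p = 0.870, adjusted p = 0.958) and −15.7 at NEAT1, where the direction turned (5 of 6 in each, exact permutation p = 0.435, adjusted p = 0.632). By that reference the RCC4 difference was −8.78 at the MALAT1 site 8.40 kb upstream (0 against 2 of 6 libraries, exact permutation p = 0.5). It was −8.73 at the NEAT1 upstream site (0 against 1 of 6), and the H19 site had no peak in RCC4 or in this reference. With this reference 0 of 1960 sites passed (0%), with 239 at an unadjusted p under 0.05. At MIR210HG the large difference from HKC8 was thus present with the knockout experiment as reference and not with the other experiment, while at H19 the HepG2 difference was present with both. HepG2 and RCC4 were not measured within either HKC8 experiment, and the comparisons share the HKC8 libraries.

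Sites elsewhere in the genome with the most similar order over the 50 libraries were named by their nearest protein-coding gene. For the MIR210HG promoter these were the promoters of EGLN1 (Spearman rho 0.915), SLC2A1, the GLUT1 glucose transporter (0.893), and BNIP3L, a mitophagy receptor (0.893). For the NEAT1 promoter they were at PLEKHA2 (0.777), AXL, a receptor tyrosine kinase (0.736), and KLF10, a zinc finger repressor (0.709). For the MALAT1 site 8.40 kb upstream they were nearest to SPN (0.856), PAPSS2 (0.849) and CIRBP, a cold-inducible RNA-binding protein (0.848). The TSSs of these genes were 48.0, 40.6 and 1.28 kb away. For the H19 site they were nearest to PRAG1 (0.957), BSG (0.952) and EGLN3, an oxygen-sensing hydroxylase (0.951). The TSSs of these genes were 97.9, 12.2 and 25.3 kb away. Between 2647 and 2652 sites called in at least 10 libraries were compared, the 50 points share groups and list lengths, and libraries with no peak at either site raise these values.

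Other noncoding genes with a reported link to hypoxia were counted by the same rule. Of 20 listed, 19 were found in the annotation and 16 had a peak in at least 1 library (84.2%, beside 70.3% of lncRNA genes), with a median of 7 libraries. LUCAT1 was called in all 50 libraries, HIF1A-AS3 in 44 and EGLN3-AS1 in 42, and only these 3 reached the count of MIR210HG. UCA1 was called in 9 libraries, all from RCC4 (5) and HepG2 (4), and KCNQ1OT1, an imprinted transcript like H19, in 9 of the 14 knockout experiment libraries and nowhere else. HOTAIR was called in 11 and SNHG1 in 22. TUG1, HIF1A-AS1 and WT1-AS had no peak in any library. The annotation types TUG1 as protein-coding, so the share of lncRNA genes is not its reference. The rule also counts peaks that lie at neighbouring genes, so these counts do not place binding at the listed genes.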

How the data were processed

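Peaks of 50 ChIP libraries were used, in 25 groups named by the labels. Per the labels and the study's methods, the authors trimmed reads (Trim Galore 0.3.3), aligned them to GRCh37 (BWA 0.7.5a-r405), removed low mapping quality and black-listed reads (SAMtools 0.1.19, bedtools 2.17.0), marked duplicates (Picard 1.106) and called peaks in each library separately with MACS against input. For its own binding sites the study also called peaks with T-PIC and kept those found by both callers. It then required a count above random background regions and overlap between replicates. Those steps were not applied here. The deposited score is −10 × log10 p (lowest 50.0, that is 1e-05). No file holds read depth, so an absent peak is not absent binding, and list length may follow sequencing depth.

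Peaks overlapping by at least 1 bp were merged across all lists, without 294 peaks off the main chromosomes. A site's value in a library was its highest score percentile, or 0. Exact permutation tests (Python 3.11.15, numpy 2.4.6, scipy 1.17.1) ran on every merged site called in at least 4 of 28 libraries (isoforms) or 3 of 12 (other comparisons), with Benjamini-Hochberg adjustment over all sites, and were tested on simulated data. The study describes replicates as independent experiments. The p-values measure the spread between these libraries. The text names the 4 genes, all sites called in both libraries of a group, and for each gene's most often called site the 3 most similar sites elsewhere. The members, lists and tests were chosen with earlier results of these data known. Motifs were searched within 100 bp of a site's centre (median of its peak centres). Same-numbered libraries did not deviate together (correlations of −0.248 to 0.138 between isoforms), so numbers were not taken as pairs.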

Additional observations from a re-analysis of the deposited data

How the results depend on the processing

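No direction turned at the MIR210HG or NEAT1 promoter in the isoform comparison under any of the 41 alternatives, with differences of 0.903 to 28.6 and −50.0 to −9.26. NEAT1 stayed at −33.5 but passed the threshold among sites in at least 8 libraries. The MALAT1 site 8.40 kb upstream turned from −4.14 to 3.24 and H19 from −0.467 to 0.0844 with lists of equal length, and the cause was not tested. Leaving out 1 library each gave 9.72 to 23.7 at MIR210HG, −40.1 to −26.9 at NEAT1, −8.70 to 0.428 at MALAT1, which turned without HepG2 HIF-1α replicate 1, and −0.926 to −0.00726 at H19. Without replicate 1 or 2 of every group, they were 15 to 18.4, −43.8 to −23.3, −9.10 to 0.833 and −0.825 to −0.109, and the NEAT1 site 3.98 kb upstream gave −23.1 to 7.44.

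The 182 sites that differed between isoforms became 0 with calls alone, 54 with scores of at least 100, 0 in the knockout experiment, RCC4 and HepG2 alone, 316 without HepG2, 346 among sites in at least 8 libraries, 0 with no filter, and 0 without either replicate number. The set of the knockout experiment, RCC4 and HepG2 and the sets without a replicate number allow far fewer arrangements than the main test. Their smallest possible p is larger, so their 0 does not show that the differences vanish. Leaving out 1 library each gave 68 to 254, with 68 to 120 without either HKC8 HIF-1α library at 0.5% 6 h, 0.5% 48 h or 3% 6 h, HIF-2α replicate 1 at 48 h, or HIF-2α replicate 2 at 3%. With the replicate block it was 0, and also 0 with HepG2 numbers crossed, added after the data were seen because same-numbered HepG2 libraries deviated in opposite ways. The replicate block changed no call at the 4 genes. The oxygen, time and line comparisons called 0 sites under all 32 alternatives. Alternatives without HIF-1β or without a replicate number allow too few arrangements for any p under 0.05, so their 0 was fixed in advance. In the main tests and the other alternatives a site could pass the adjustment only if many sites had a low p together. Their 0 does not show that no site differs.

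Among the oxygen, time and line differences the direction turned at 3 values with other scores or replicates: MIR210HG, 16 h against 6 h, with scores of at least 100 (11), NEAT1, 48 h against 6 h, without replicate 2 (8.85, and −54.3 without replicate 1), and the NEAT1 upstream site, HepG2 against HKC8, without replicate 2 (7.26, and −55.7 without replicate 1). With HKC8 of the severity and duration experiment as reference, added after the data were seen, it turned at the NEAT1 promoter in RCC4 (−15.7) and, in HepG2, at the MALAT1 site 8.40 kb upstream (1.87) and the NEAT1 upstream site (11.5). Of the 25 knockout differences that were not 0, all without a usable test, 10 turned without replicate 1 or replicate 2, at NEAT1 and MALAT1 sites, such as the NEAT1 downstream site with HIF-1α (13.8 to −38.3) and the NEAT1 promoter with HIF-2α (24.8 to −13.9). Gene bodies alone left MIR210HG in 1 library, NEAT1 and MALAT1 in 2 each and H19 in 0. Scores of at least 100 left NEAT1 in 24 and MALAT1 in 8, and lists cut to 237 peaks left 8 and 0. The AP-1 motif was at 0 sites within 50 bp and 2 within 200 bp.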
